A study of Mus musculus with 16 samples.

Results

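Genes that bring glucose into cells and commit it to breakdown were followed in pancreatic islets of mice in which Insm1 was deleted in adult beta cells. Insm1 encodes a zinc finger protein that regulates transcription in endocrine cells. The 9 genes are 3 facilitative glucose transporter genes (Slc2a2, Slc2a1 and Slc2a3), the glucose-6-phosphatase gene G6pc2, the hexokinase genes Hk1 and Hk2, and the phosphofructokinase genes Pfkp, Pfkl and Pfkm. The 9 were chosen by name, and all 9 were found among the 18193 genes that the array annotation could place. Each is represented by its brightest probe set, a group of short probes against 1 transcript, over all 16 arrays. Values are log2 signals, so that a difference of 1 is a 2-fold change in signal, and the level of 1 probe set cannot be set against that of another.

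Glucose enters rodent beta cells mainly through GLUT2, the product of Slc2a2, whereas GLUT1 and GLUT3, the products of Slc2a1 and Slc2a3, serve many other cell types. Phosphorylation traps glucose inside the cell. Hexokinases 1 and 2 do this with high affinity and are normally scarce in beta cells, G6PC2 reverses the step in the endoplasmic reticulum, and phosphofructokinase catalyses the next committed step of glycolysis. Sensing of glucose by beta cells is thought to rest on uptake and phosphorylation that keep pace with its concentration in blood.

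There were 8 mutant and 8 control islet preparations, each on 1 array. All animals carried RIPcreER, a tamoxifen-inducible Cre recombinase driven by the rat insulin promoter, on a mixed C57BL/6, 129/ola and CBA/J background. Mutants were Insm1flox/lacZ and controls Insm1flox/+, so that the floxed allele could be deleted in beta cells of either group, and the controls retained a wild-type allele. Tamoxifen (25 mg, released over 21 days) was given to animals aged 4 to 5 weeks, whose islets were isolated when they were 8 to 12 weeks old. The controls were litter-matched according to the series design, and arrays with the same replicate number are called a pair below. Islets also hold alpha, delta and other cells that the insulin promoter does not mark. These cells too carried the lacZ allele in mutants and not in controls, so the groups differ by more than deletion in beta cells. In such whole-islet RNA, fewer cells of a type and less RNA per cell cannot be told apart.

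The targeted gene itself did not pass the test. The Insm1 signal ranged from 10.94 to 11.60 (median 11.24) in controls and from 10.71 to 11.30 (median 11.08) in mutants, and the mutant read lower than its control in 5 of 8 pairs (adjusted p = 0.182). Whether its probes lie in the deleted part is not stated in the sources used here, so this signal checks nothing about the genotypes. The mean of 8 endocrine markers, led by the hormone genes Ins2 and Iapp, lay between 14.52 and 14.81 on all arrays and was higher in 7 of 8 mutants than in their controls, by a mean of 0.067 (exact paired permutation test, p = 0.0156, adjusted p = 0.055 over 7 marker lists). Ins2 read 15.34 to 15.39, up to the highest value on any array (15.39). At this end of the scale the endocrine mean does not bound a change in endocrine content. The mean of 17 acinar markers, from digestive enzyme genes such as Cela3b and Ctrb1, ranged from 11.80 to 13.86 in controls and from 8.68 to 13.48 in mutants, with mutants below their controls in 8 of 8 pairs (exact paired permutation test, p = 0.00781, adjusted p = 0.055 over 7 marker lists). Without the pairing, the adjusted p was 0.268 for the endocrine and for the acinar mean (exact permutation test). The mean of 20 immune markers, such as C1qa and Ctss, ranged from 7.19 to 8.35 in controls and from 7.19 to 9.14 in mutants, with mutant replicates 1, 3 and 2 the highest mutant arrays (9.14, 8.93 and 8.08). The immune difference did not pass (exact permutation test, adjusted p = 0.327, and 0.219 when paired). Of the 17 acinar markers 1 was called, 15 had an unadjusted p under 0.05, and 16 were called lower with the replicate number as a block. Of 11 stromal markers 3 were called (8 at an unadjusted p under 0.05), and with the block 4 were called higher and 3 lower. Of 20 immune markers C1qa alone was called (3 at an unadjusted p under 0.05), and of 7 ductal markers 2 were called, with the same counts under the block. None of 8 endocrine, 12 endothelial and 3 erythroid markers was called by limma (1, 2 and 0 at an unadjusted p under 0.05). With the block 1, 0 and 0 were called. Of all 18193 genes, 8.76% were called and 3902 had an unadjusted p under 0.05, and 17.6% were called with the block.

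Of the 9 genes, 4 changed. Slc2a2 and G6pc2 fell and Hk1 and Pfkp rose, at an adjusted p under 0.05 in a limma fit over all 18193 genes. Of all genes tested, 8.76% were called, 4.1% higher and 4.66% lower in the mutant. All 9 had a mean above the lowest array median, and without the genes below it 1617 of 11695 were called. Slc2a1, Slc2a3, Hk2, Pfkl and Pfkm did not pass. The median difference of the 9 genes was 0.030, against −0.0058 over all genes. With the replicate block, which compares each mutant array with its same-numbered control, Slc2a3 and Pfkl were called as well, 6 of 9 genes, 3 in each direction. Of all genes 17.6% were then called, 7.88% higher and 9.71% lower.

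**Figure D1:**
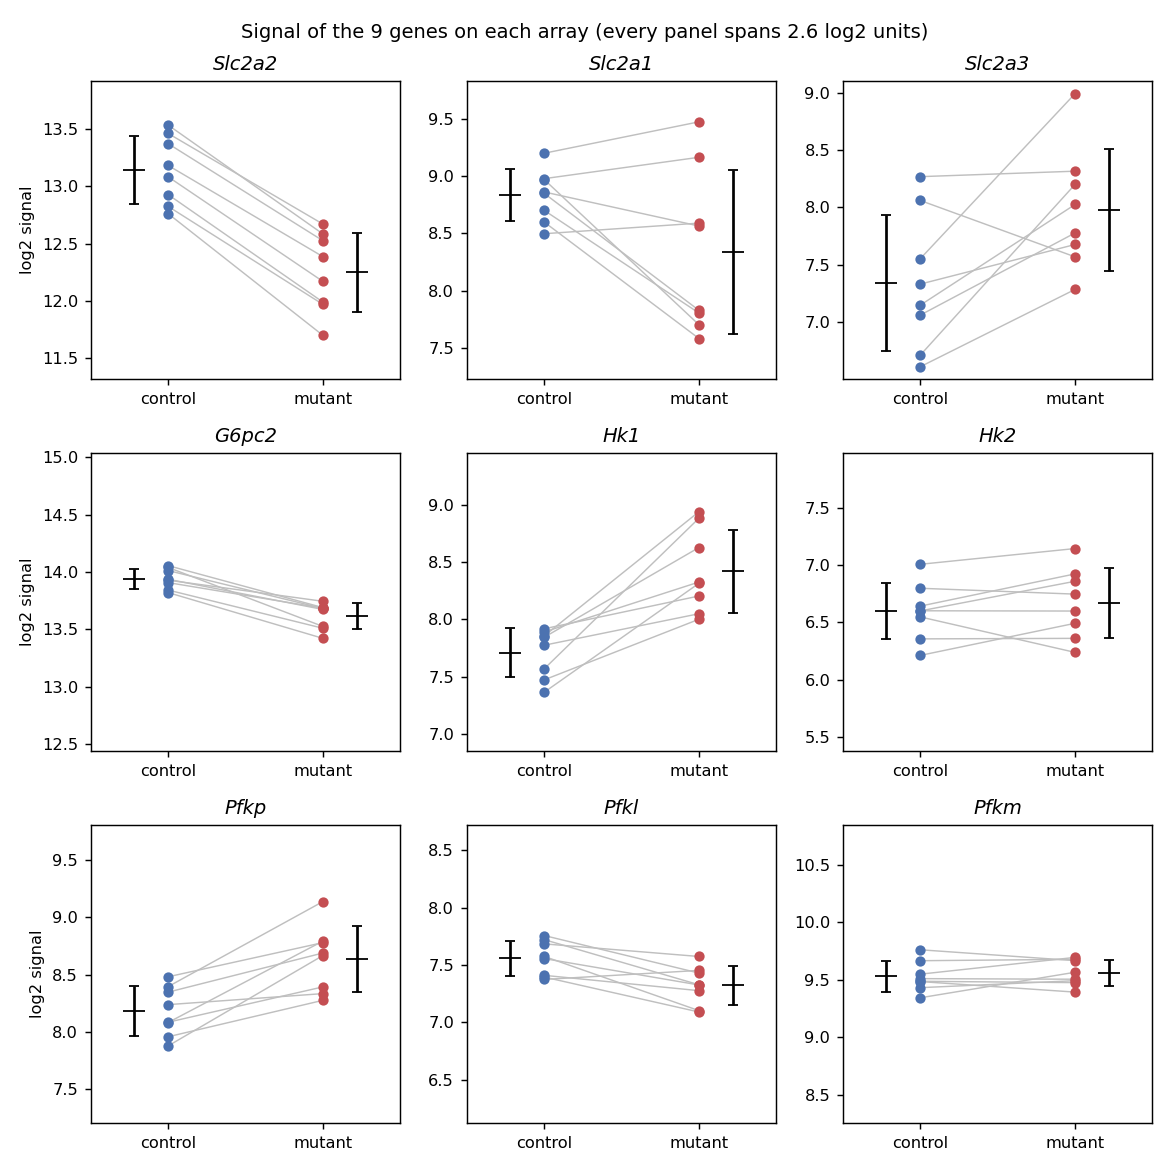
Log2 signal of the brightest probe set of each of the 9 genes on the 16 arrays. Blue points are the 8 control and red points the 8 mutant arrays, grey lines join arrays with the same replicate number, and black bars give the mean ± SD of each group. The groups are apart for Slc2a2, G6pc2 and Hk1, and the mutant arrays of Slc2a1 range from 7.58 to 9.47.

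Slc2a2, the beta-cell glucose transporter gene, had the largest fall of the 9. Its signal ranged from 12.76 to 13.53 (median 13.13) on control arrays and from 11.70 to 12.67 (median 12.28) on mutant arrays. Every mutant array lay below every control array. The groups' means were 13.14 ± 0.29 and 12.25 ± 0.35 (SD, n = 8 each), a difference of −0.89 ± 0.15 (SE), or 1.86-fold lower (adjusted p = 0.000827). The difference was nearly the same in all pairs, from −1.06 to −0.79. With the replicate block the SE was 0.038 (adjusted p = 3.4e-07).

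G6pc2 encodes the islet glucose-6-phosphatase, which turns glucose-6-phosphate back into glucose. Its signal lay between 13.82 and 14.06 (median 13.93) in controls and between 13.42 and 13.75 (median 13.68) in mutants. Here too no mutant array reached the lowest control. The mean went from 13.94 ± 0.087 to 13.62 ± 0.11 (SD, n = 8), a difference of −0.33 ± 0.054 (SE), 1.25-fold (adjusted p = 0.000857). It was lower in 8 of 8 pairs, by −0.51 to −0.18.

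Hk1, the gene of the high-affinity hexokinase 1, rose. Control arrays read 7.36 to 7.92 (median 7.81) and mutant arrays 8.00 to 8.94 (median 8.32), again without overlap. The difference was 0.71 ± 0.14 (SE), from 7.71 ± 0.21 to 8.42 ± 0.36 (SD, n = 8), 1.63-fold higher (adjusted p = 0.00321). The pairs differed in how far it rose, from 0.27 in pair 6 to 1.31 in pair 8. The groups were apart for 3 of the 9 genes (Slc2a2, G6pc2 and Hk1), and for 2.29% of all genes (1.09% lower and 1.19% higher in the mutant). Hk2, the gene of the second high-affinity hexokinase, read 6.21 to 7.01 (median 6.60) in controls and 6.24 to 7.14 (median 6.67) in mutants, a range that overlapped almost wholly. Its difference was 0.075 ± 0.13, with a 95% confidence interval of −0.20 to 0.35 (adjusted p = 0.809). This signal is close to the array medians of 6.29 to 6.35, where background compresses differences, so the interval does not bound the change in transcript. With the acinar and immune means as covariates beside the block, it read 0.34 ± 0.22 (adjusted p = 0.865).

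Pfkp, the platelet-type phosphofructokinase gene, rose from 8.18 ± 0.22 to 8.63 ± 0.29 (SD, n = 8), by 0.45 ± 0.12 (SE), 1.37-fold (adjusted p = 0.0242). Its control arrays ranged from 7.88 to 8.48 (median 8.16) and its mutant arrays from 8.28 to 9.14 (median 8.68), so the groups overlapped, with 5 of 8 mutant arrays above the highest control. The mutant was higher in 8 of 8 pairs, by 0.096 to 0.79. The call was lost without pairs 1 to 3 (0.36, adjusted p = 0.214) and without control replicate 3 (0.41, adjusted p = 0.0503). The mutant arrays of pairs 1 to 3 had the highest immune marker means. With the immune mean as a covariate Pfkp was still called (0.44, adjusted p = 0.0414). Without these pairs, which leaves fewer arrays, 828 of all genes were called, against 1594 with all arrays. The cause of the loss was not tested.

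The liver-type gene Pfkl read 7.37 to 7.76 (median 7.57) in controls and 7.09 to 7.57 (median 7.33) in mutants. The difference of −0.24 ± 0.081 did not pass (adjusted p = 0.0816), but did with the replicate block (adjusted p = 0.0269) and without mutant replicate 5 (−0.27, adjusted p = 0.0426). It was lower in 7 of 8 pairs. Pfkm, the muscle-type gene, read 9.34 to 9.76 (median 9.50) in controls and 9.39 to 9.70 (median 9.54) in mutants. Its difference was 0.030 ± 0.064, with a confidence interval of −0.11 to 0.16 (adjusted p = 0.849). Of the 3 phosphofructokinase genes, Pfkp alone was called in the unpaired fit.

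Slc2a1, the gene of the widely expressed transporter GLUT1, spread further among mutants than among controls, a difference in spread that was not tested. Control arrays read 8.5 to 9.20 (median 8.85, SD 0.23) and mutant arrays 7.58 to 9.47 (median 8.20, SD 0.72). The mutant range thus reached beyond the control range at either end, with 4 mutant arrays below the lowest control (replicates 2, 6, 7 and 8, at 7.81, 7.83, 7.70 and 7.58) and 1 above the highest (replicate 5). By pair the difference ran from −1.27 in pair 7 to 0.27 in pair 5, and the mutant was lower in 5 of 8. The mean difference of −0.49 ± 0.24 did not pass (adjusted p = 0.255, and 0.0889 with the replicate block). Endothelial cells are rich in GLUT1 in several tissues. The mean of 12 endothelial markers ranged from 8.37 to 8.66 in controls and from 8.06 to 8.61 in mutants (exact permutation test, p = 0.58, adjusted p = 0.58), and with it as a covariate the difference of Slc2a1 was −0.57 (adjusted p = 0.152). It was −0.35 with the stromal mean (adjusted p = 0.483), and −0.88 ± 0.60 (SE) when the acinar and immune means were joined to the block (adjusted p = 0.868).

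Slc2a3, whose product GLUT3 is typical of neurons and white blood cells, read 6.61 to 8.27 (median 7.24) in controls and 7.29 to 8.99 (median 7.90) in mutants. It was higher in the mutant in 7 of 8 pairs, with a difference of 0.64 ± 0.26 that did not pass (adjusted p = 0.147). It passed with the replicate block (adjusted p = 0.0434) and when the acinar mean was a covariate (0.93, adjusted p = 0.0403). It read −0.016 (adjusted p = 0.994) when the block was joined by the RNA quality measure described next. The highest value was on mutant replicate 5, whose immune marker mean was 7.44, and mutant replicates 1 and 3, with the highest immune means, read 8.32 and 8.20. With the immune mean as a covariate, the difference of Slc2a3 was 0.50 (limma, adjusted p = 0.289). When the acinar and immune means were joined to the block, it was −0.31 (limma, adjusted p = 0.978). The part of other cells in this signal was not tested beyond these covariates.

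**Figure D2:**
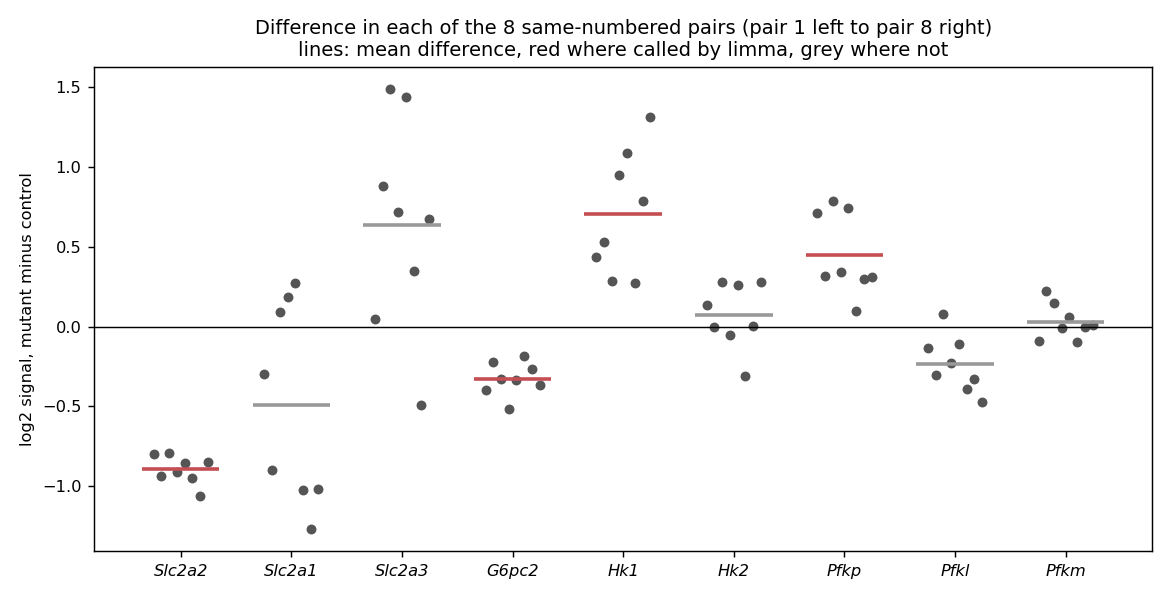
Mutant minus control log2 signal in each of the 8 pairs for each of the 9 genes, as grey points ordered from pair 1 on the left to pair 8 on the right, with the mean difference as a line (red where called by limma). Differences of Slc2a2 lie between −1.06 and −0.79, whereas those of Slc2a1 run from −1.27 to 0.27.

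Within pairs, RNA quality moved with the groups. The signal of the 3′ minus the 5′ control probe set of Gapdh read lower in mutants than in their controls in 8 of 8 pairs, by a mean of −0.070 (exact paired permutation test, p = 0.00781, adjusted p = 0.0156 over 2 transcripts), and that of beta-actin in 7 of 8, by −0.092 (exact paired permutation test, p = 0.0156, adjusted p = 0.0156). Without the pairing neither difference passed (exact permutation test, adjusted p = 0.129 for each). With the mean of these measures as a covariate beside the replicate block, Slc2a2 read −0.93 and was still called (adjusted p = 0.00221), while G6pc2 (−0.43), Hk1 (0.96) and Pfkp (0.40) kept their direction without a call (adjusted p = 0.0527, 0.116 and 0.438). The block was also combined with both the acinar and the immune mean. None of the 9 was then called by limma (4 at an unadjusted p under 0.05). Of all 18193 genes, 9 were called and 1245 had an unadjusted p under 0.05. The differences of Slc2a2, G6pc2, Hk1 and Pfkp were then −0.92, −0.37, 1.26 and 0.63 (adjusted p = 0.0675, 0.667, 0.375 and 0.612).

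**Figure D3:**
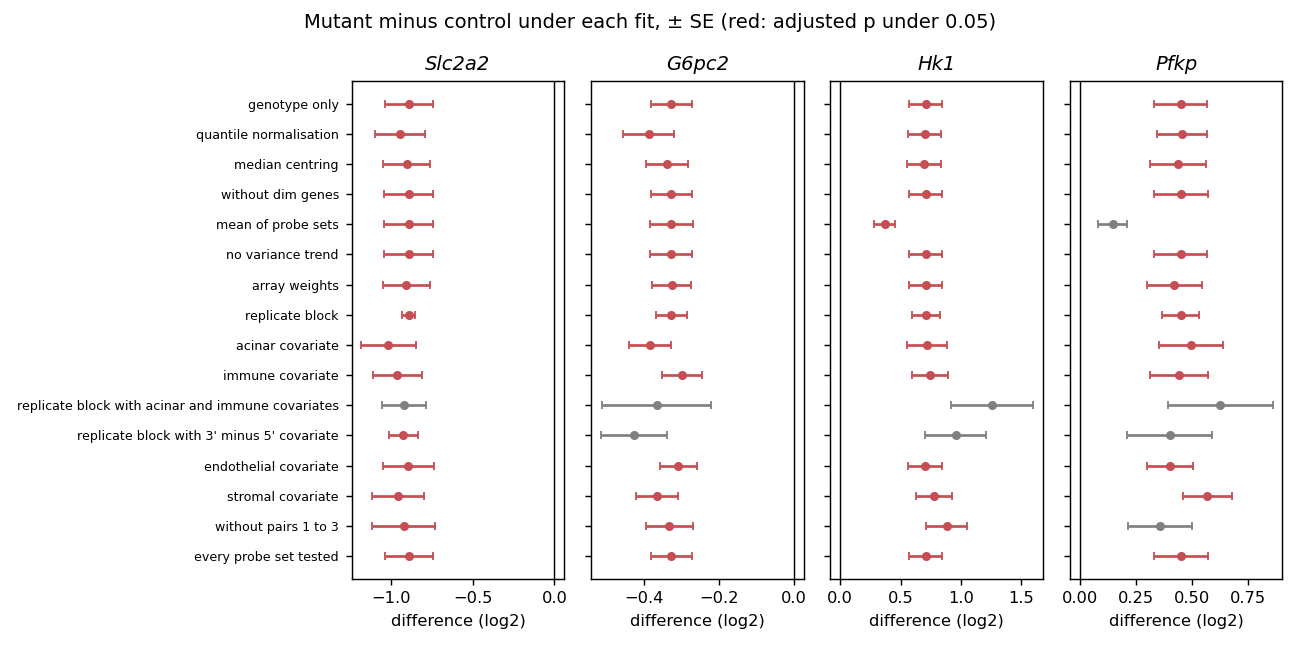
Mutant minus control difference (log2) ± SE of the 4 called genes under 16 fits, red where the adjusted p over all genes was under 0.05. All points of Slc2a2 and G6pc2 lie below 0 and all points of Hk1 and Pfkp above it; Slc2a2 lost its call in 1 fit, from which 5 residual degrees of freedom remained.

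The 9 genes have 19 probe sets in all, 14 of them with a mean above the lowest array median of 6.29. Slc2a2, G6pc2, Hk2 and Pfkm have 1 each. For Slc2a1 all 3 read lower in the mutant (−0.49, −0.45 and −0.38), none called. For Hk1 and Pfkp the brightest was the only probe set above that median, and the others, with means of 4.44 to 5.32, differed by −0.038 to 0.033. The mean over all probe sets of a gene therefore gave smaller differences, 0.37 for Hk1 (adjusted p = 0.0114) and 0.15 for Pfkp (adjusted p = 0.197). Of the 4 probe sets of Slc2a3, the brightest 2 differed by 0.64 and 0.39 and the dim ones by −0.0051 and −0.024. The identifiers of both bright probe sets carry suffixes by which Affymetrix marks probes shared with other transcripts. For Pfkl the brightest differed by −0.24 and the others, both above the median, by 0.023 and 0.074, so that its probe sets disagreed. Over all 34945 probe sets with 1 gene, 6.86% were called, among them 4 of these 19.

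**Figure D4:**
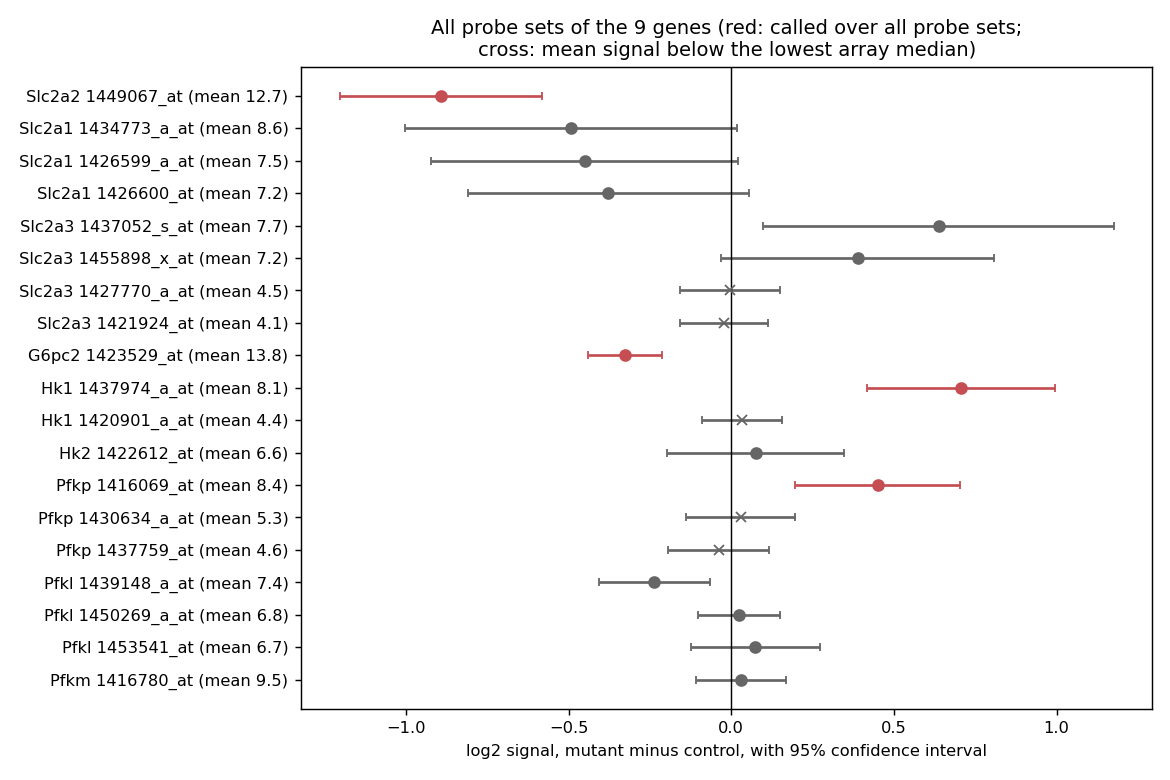
Mutant minus control difference (log2) with its 95% confidence interval for all 19 probe sets of the 9 genes, with the mean log2 signal over 16 arrays beside each name. The 4 called probe sets (red) are the brightest of Slc2a2, G6pc2, Hk1 and Pfkp, and crosses mark those with a mean below 6.29.

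The other genes of glucose handling were read from 7 lists with 85 entries, of which 76 were measured. Of the 76, 5 rose and 5 fell, 13.2% against the 8.76% of all genes given above, and these 10 read one way in 8 of 8 pairs. Their median difference was −0.02, against −0.0058 over all genes. With the replicate block 12 were called higher and 9 lower, 27.6% against 17.6% of all genes. Without pairs 1 to 3, 4 of the 76 were called, 5.26% against 4.55%, among them Pfkfb2, Mpc1 and Txnip of the 10. Of the 76, 15 had a mean below the lowest array median. With such dim genes left out, 11 of the others were called, where 1617 of 11695 genes were. These shares were not tested against each other. All 10 genes called in the unpaired fit were called with the replicate block.

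Among 7 glucose-responsive regulators, 2 rose and 1 fell, where 8.76% of all genes were called; with the block 3 were called higher and 2 lower, where 17.6% of all genes were. Txnip, encoding a thioredoxin-binding arrestin that restrains glucose uptake, rose from 12.25 ± 0.26 to 13.16 ± 0.27 (SD, n = 8), 1.87-fold (0.91 ± 0.12, adjusted p = 0.000125). Its controls read 11.94 to 12.65 and its mutants 12.76 to 13.47, and it is the only one of the 10 whose groups did not overlap. Its relative Arrdc4 rose 2.34-fold (1.23 ± 0.24, adjusted p = 0.00362), from 6.98 to 7.62 in controls to 7.25 to 9.46 in mutants. Mlxipl, the gene of the glucose-activated transcription factor ChREBP, fell 1.62-fold (−0.70 ± 0.17, adjusted p = 0.0129). Txnip and Arrdc4 are textbook targets of ChREBP, and both rose where Mlxipl fell. A link between these changes was not tested. Mlxipl kept its call in each fit with a covariate, and lost it without pairs 1 to 3 (−0.73, adjusted p = 0.132), as did Arrdc4 (1.20, adjusted p = 0.0646). Txnip and Arrdc4 lost theirs where the block was joined by the RNA quality measure (1.0 and 1.71, adjusted p = 0.154 and 0.103) or by both marker covariates (1.16 and 2.05, adjusted p = 0.568 and 0.525), with differences larger than in the unpaired fit.

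Of 14 genes of pyruvate and lactate handling, 2 rose and 2 fell, again beside 8.76% of all genes. Pdk1 and Pdk4, kinases that switch off pyruvate dehydrogenase, rose 1.65-fold and 1.89-fold (0.72 ± 0.16 and 0.92 ± 0.26, adjusted p = 0.0081 and 0.0359). Pcx, the pyruvate carboxylase gene, fell 1.5-fold (−0.59 ± 0.13, adjusted p = 0.00816), and Mpc1, a subunit of the mitochondrial pyruvate carrier, 1.29-fold (−0.37 ± 0.11, adjusted p = 0.0414). Of the 4 probe sets of Pdk1, 1 was called. The calls of Pdk4 and Mpc1 were each lost on leaving out any of 10 arrays (adjusted p up to 0.0716 and 0.0845; for Pdk4 mutant replicates 1, 3, 5, 6 and 7 and control replicates 2, 3, 4, 7 and 8, for Mpc1 mutant replicates 1, 2, 3, 4 and 7 and control replicates 4 to 8). Without pairs 1 to 3, which leaves fewer arrays, the differences of Pdk1, Pdk4 and Pcx were 0.69, 0.84 and −0.58 and their calls were lost (adjusted p = 0.0937, 0.15 and 0.0514). Pdk4 read 0.13 where the RNA quality measure was joined to the block (adjusted p = 0.899). Mpc1 and Pcx lost their calls there too (−0.56 and −0.80, adjusted p = 0.0713 and 0.194). With the immune covariate Pdk4 and Mpc1 were not called (0.80 and −0.32, adjusted p = 0.0787 and 0.0873). Nor was Mpc1 with the endothelial or the stromal covariate (−0.37 and −0.36, adjusted p = 0.0538 and 0.0817). With both marker covariates beside the block none of these 4 was called (lowest adjusted p = 0.375).

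Of 6 genes that set the balance of phosphofructokinase and fructose bisphosphatase, 1 fell. This was Pfkfb2, whose product makes fructose 2,6-bisphosphate, the activator of phosphofructokinase (1.37-fold, −0.46 ± 0.12, adjusted p = 0.0228), with all 4 of its probe sets called lower. Its call was lost with the stromal covariate (−0.38, adjusted p = 0.0744), and where the block was joined by the RNA quality measure (−0.47, adjusted p = 0.184) or by both marker covariates (−0.70, adjusted p = 0.454). Of 13 other hexose transporter genes, Slc2a13, which encodes a proton-coupled myo-inositol transporter, fell 1.97-fold (−0.98 ± 0.19, adjusted p = 0.00324), and Slc2a10 rose by 0.29 ± 0.073 (adjusted p = 0.0193) at a signal below 6.29 in either group. Both calls were lost without pairs 1 to 3 (−1.10, adjusted p = 0.0502, and 0.35, adjusted p = 0.0582). They were also lost when the block was combined with both covariates (−0.82, adjusted p = 0.807, and −0.19, adjusted p = 0.93), where Slc2a10 changed sign. Slc2a10 was not called with the acinar covariate (0.20, adjusted p = 0.112) or with the RNA quality measure beside the block (0.21, adjusted p = 0.725).

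None of 8 other hexose kinase and glucose-6-phosphatase genes was called by limma. Nor was any of 11 genes of the remaining glycolytic steps or of 17 genes of the pentose phosphate, glycogen and hexosamine routes. In these lists 2, 2 and 6 genes had an unadjusted p under 0.05, where 3902 of all 18193 genes did and 8.76% were called. The lowest p of each list was that of Khk, ketohexokinase (−0.23 ± 0.098, adjusted p = 0.186), Bpgm, bisphosphoglycerate mutase (0.22 ± 0.081, adjusted p = 0.104), and Gfpt1, the entry enzyme of hexosamine synthesis (−0.26 ± 0.081, adjusted p = 0.0585). With the replicate block these 3 were called (adjusted p = 0.00609, 0.0262 and 0.00323), where 17.6% of all genes were.

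**Figure D5:**
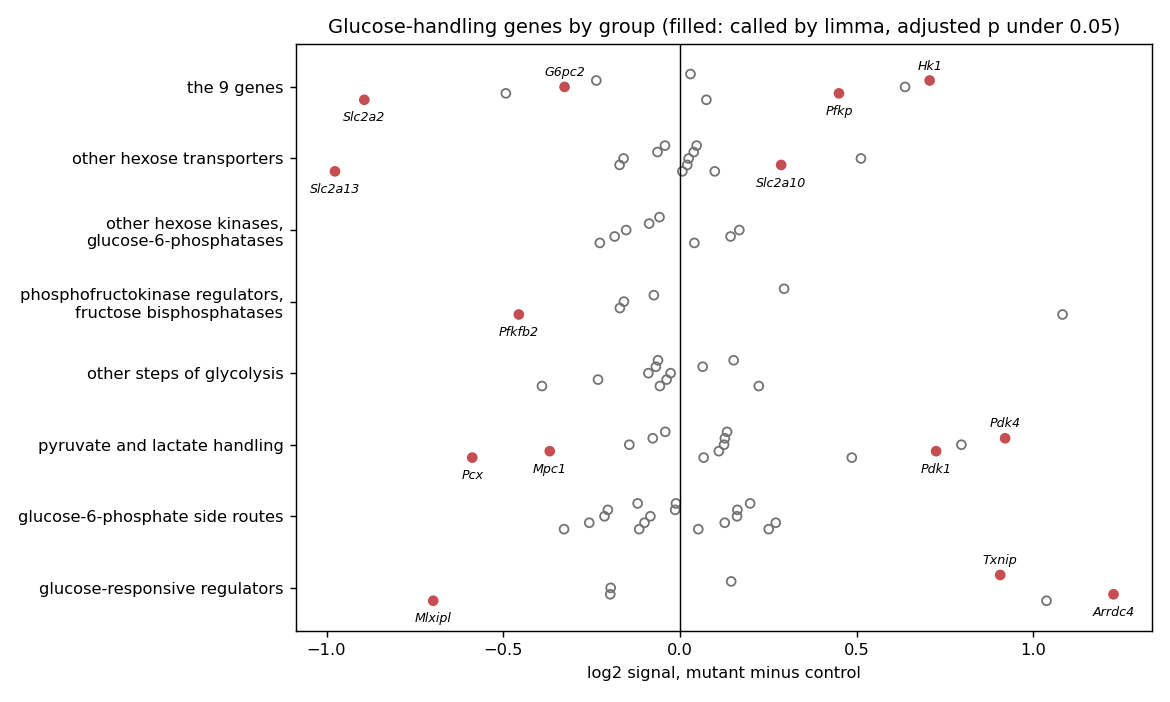
Mutant minus control difference (log2) of the 9 genes and of 76 other glucose-handling genes by list, 1 point a gene, filled red and named where called by limma. Calls lie among transporters, phosphofructokinase regulators, pyruvate handling and glucose-responsive regulators, with 5 of the 76 higher and 5 lower.

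RefSeq promoter windows on GRCm38.p6 were on hand for 8 of the 9 genes, 13 windows in all, and the 250 bases before the start are shown for the 4 that changed, since these moved in opposite directions. The windows are those of Slc2a2 (chr3:28697653-28697902, plus strand), G6pc2 (start 1, chr2:69210823-69211072, plus strand; start 2, chr2:69219699-69219948, plus strand), Hk1 (start 1, chr10:62379909-62380158, minus strand; start 2, chr10:62340422-62340671, minus strand) and Pfkp (chr13:6648772-6649021, minus strand), each written 5′ to 3′ along its gene. Capitals mark matches, on either strand, to CATCTG, an E-box form bound by Neurod1, to TGTTTNC, a forkhead form bound by Foxa factors, and to CACGTG, the E-box form of ChREBP; these were searched because the series title names Neurod1 and Foxa2 and because Mlxipl is among the genes above.
Slc2a2: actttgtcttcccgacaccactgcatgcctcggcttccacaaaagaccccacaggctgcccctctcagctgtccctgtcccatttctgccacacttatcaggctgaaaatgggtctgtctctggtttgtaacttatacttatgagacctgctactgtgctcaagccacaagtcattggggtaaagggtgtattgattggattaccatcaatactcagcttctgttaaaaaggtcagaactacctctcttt
G6pc2 start 1: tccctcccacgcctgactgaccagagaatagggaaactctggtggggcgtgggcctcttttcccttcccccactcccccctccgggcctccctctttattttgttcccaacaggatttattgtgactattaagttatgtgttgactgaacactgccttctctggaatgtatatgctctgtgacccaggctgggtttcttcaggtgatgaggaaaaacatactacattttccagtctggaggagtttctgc
G6pc2 start 2: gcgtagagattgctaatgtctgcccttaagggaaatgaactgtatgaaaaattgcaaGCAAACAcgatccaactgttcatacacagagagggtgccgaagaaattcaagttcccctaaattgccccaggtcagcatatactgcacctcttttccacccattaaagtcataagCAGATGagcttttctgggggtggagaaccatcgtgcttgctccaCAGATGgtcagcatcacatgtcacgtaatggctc
Hk1 start 1: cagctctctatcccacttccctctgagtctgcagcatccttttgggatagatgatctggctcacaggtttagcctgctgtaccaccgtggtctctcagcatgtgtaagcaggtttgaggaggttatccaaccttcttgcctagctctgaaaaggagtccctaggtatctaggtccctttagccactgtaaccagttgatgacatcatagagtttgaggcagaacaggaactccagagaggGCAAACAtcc
Hk1 start 2: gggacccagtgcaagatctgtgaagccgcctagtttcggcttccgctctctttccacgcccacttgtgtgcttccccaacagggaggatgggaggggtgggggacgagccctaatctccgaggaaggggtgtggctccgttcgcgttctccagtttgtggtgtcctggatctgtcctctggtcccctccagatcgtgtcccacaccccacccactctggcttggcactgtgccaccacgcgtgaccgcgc
Pfkp: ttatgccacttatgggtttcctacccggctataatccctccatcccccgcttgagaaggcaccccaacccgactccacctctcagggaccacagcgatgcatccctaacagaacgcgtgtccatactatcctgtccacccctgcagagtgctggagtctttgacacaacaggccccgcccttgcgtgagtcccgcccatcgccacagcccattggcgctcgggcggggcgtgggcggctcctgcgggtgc

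The windows of Slc2a2, Pfkp, G6pc2 start 1 and Hk1 start 2 hold none of the 3 motifs. G6pc2 start 2 has CATCTG, as its reverse complement, 78 and 34 bases before the start, and TGTTTNC, as GCAAACA, at 193 bases. Hk1 start 1 has the same GCAAACA 10 bases before the start. No matches overlap. Over the 13 windows of the 8 genes, CATCTG is in 1, TGTTTNC in 2 and CACGTG in 1 (Pfkm), where 14.4%, 17.8% and 6.02% of all 32851 windows of this length hold them. The arrays do not tell the starts of a gene apart.

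The pattern of Slc2a2 over the 16 arrays, taken as deviations from the group means, was most like that of Cenpx, Poll and Phf7 (Pearson r = 0.91, 0.91 and 0.90, Spearman rho = 0.92, 0.95 and 0.88), none of which was called (adjusted p = 0.76, 0.761 and 0.369). Without the 2 arrays farthest from the median of Slc2a2, r was 0.92, 0.91 and 0.86. The nearest to G6pc2 were Pip5k1b, Ctbs and Slc9a8 (r = 0.86, 0.86 and 0.84, rho = 0.87, 0.85 and 0.82, and r = 0.78, 0.83 and 0.78 without 2 arrays). Hk1 had looser matches, Zcchc12, Foxa3 and Gipc2 (r = 0.76, 0.75 and 0.74, rho = 0.74, 0.67 and 0.72), which dropped to 0.59, 0.58 and 0.65 without 2 arrays. These are the highest values among all genes above the lowest array median, so they carry no test.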

How the data were processed

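Total RNA was extracted with Trizol and 150 ng of it was made into biotinylated cRNA by in vitro transcription, per the labels' protocols, for 16 Affymetrix mouse arrays. The values are log2 signals per probe set as deposited; the authors' background correction, summarisation and normalisation are not given in the sources used here, nor is the log base, which was read from the range (2.74 to 15.39) and from array medians of 6.29 to 6.35. Signals below the medians are compressed by background, and no detection calls were used. Of 45101 probe sets, 64 controls were left out; 34945 name 1 gene, 932 several and 9160 none in the annotation used here, and 34741 symbols were updated through RefSeq gene identifiers on GRCm38.p6. Each of 18193 genes took its probe set with the highest mean.

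Mutants and controls were compared by limma (version 3.58.1; R version 4.3.3), using lmFit and eBayes with a mean-variance trend and genotype as the only term, two-sided, with Benjamini-Hochberg adjustment over all genes and calls at an adjusted p under 0.05. For the marker means and the RNA quality measures, the difference between the group means was tested by exact permutation over 12870 splits or 256 sign flips within pairs (two-sided). Samples are separate animals only as far as the labels say; the number of arrays limits the precision. On simulated arrays of these 18193 genes, 84 of 100 genes changed 1.5-fold and 99 of 100 changed 3-fold were recovered.

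Both groups carry replicate numbers 1 to 8. Each array's deviations from its group's mean correlated with those of its same-numbered partner in all 8 pairs (0.24 to 0.73), against a median of −0.10 for other numbers, so the numbers were taken to pair the arrays. The genes and lists were chosen with earlier results of these data known. Named are the 9 genes, up to 4 called genes of each other list or its gene with the lowest p, the 2 brightest markers of a list where a list is described, and the 3 genes most like Slc2a2, G6pc2 and Hk1. Alternatives were quantile normalisation, median centring, no dim genes, the mean of probe sets, every probe set tested, array weights, an eBayes step lacking the trend, replicate number as a block, covariates (acinar, immune, and with the block acinar plus immune or the 3′ minus 5′ measure), leaving out pairs 1 to 3 and leaving out each array. Stromal and endothelial covariates and the correlations between genes over pairs were added after seeing the data. Genes with no probe set of their own in the annotation were not analysed here.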

Additional observations from a re-analysis of the deposited data

Results flagged for a closer look

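None of the 9 genes had an array set far apart from its group by Dixon's ratio, among 90 groups of 8 arrays screened, of which chance sets about 1 in 20 apart. Elsewhere 4 values were set apart. The immune marker mean of control replicate 1 was 8.35, where the next control read 7.67, and this array had the highest control signal of Slc2a3. The endocrine marker mean of mutant replicate 1 was 14.60, below the next mutant at 14.72. The 3′ minus 5′ difference of Gapdh on control replicate 2 was 0.044, where the next control read −0.15. Alas2, an erythroid marker, read 6.09 on mutant replicate 3, where the next mutant read 5.73.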

How the results depend on the processing

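Slc2a2 and G6pc2 were lower and Hk1 and Pfkp higher in each of the 15 alternatives and with any array left out. With the replicate block, 3200 genes, 21 other glucose-handling genes, Slc2a3 (0.64) and Pfkl (−0.24) were called; the block ended no call of the 9 genes. With the acinar covariate 16 other genes and Slc2a3 (0.93) were called, and Pfkm read −0.041; with the immune covariate Hk2 read −0.054. With the block plus both covariates, 9 genes, 0 of the 9 (4 at an unadjusted p under 0.05, limma) and 1 other glucose-handling gene were called, and Slc2a2 (−0.92), G6pc2 (−0.37), Hk1 (1.26) and Pfkp (0.63) lost their calls, with Slc2a3 at −0.31 and Pfkm at −0.059; 5 residual degrees of freedom remained. With the block and the 3′ minus 5′ measure, 238 genes, 1 of the 9 and 4 others were called, G6pc2 (−0.43), Hk1 (0.96) and Pfkp (0.40) lost their calls, and Slc2a3, Hk2 and Pfkm read −0.016, −0.0089 and −0.094. Without pairs 1 to 3, 828 genes and 4 others were called, Pfkp (0.36) was not, and Pfkm read −0.0077. With the mean of probe sets Pfkp (0.15) was not called. Its other probe sets, which are dim, differed by 0.029 and −0.038. The cause of these losses was not tested. With each array left out, 1324 to 1645 genes, 3 to 5 of the 9 and 8 to 11 others were called; Pfkp ranged from 0.38 to 0.50, losing its call without control replicate 3, and Pfkl from −0.27 to −0.20, gaining one without mutant replicate 5. Differences of genes near the background, such as Hk2, are limited by signal.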

Other observations

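Over the 8 pairs, the differences of the 9 genes were set against each other, 36 relations in all, and none passed an exact permutation test after adjustment (4 had an unadjusted p under 0.05). The closest was that of Pfkp and Pfkl, which differ in the direction of their mean change (Pearson r = 0.88, exact p = 0.00355, adjusted p = 0.128; Spearman rho = 0.93, exact p = 0.00223, adjusted p = 0.0804; r = 0.77 without the 2 pairs farthest from the median of Pfkp). For Slc2a1 and Pfkl, r was 0.79 (exact p = 0.0227, adjusted p = 0.363; rho = 0.79, exact p = 0.0279, adjusted p = 0.251; r = 0.92 without 2 pairs).

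Fbp1, Slc16a1 and Ppargc1a, outside the naming rule, were picked after their values were seen, and did not pass in the unpaired fit. Fbp1, the gluconeogenic fructose bisphosphatase gene, differed by 1.08 ± 0.49 (SE) and was higher in 8 of 8 pairs (limma adjusted p = 0.205, and 0.0127 with the replicate block). Slc16a1, a lactate and pyruvate transporter gene that beta cells normally keep low, differed by 0.80 ± 0.33, also in 8 of 8 pairs (adjusted p = 0.163, and 0.00417 with the block), with control arrays averaging 5.27, under every array median. Ppargc1a, a coactivator of mitochondrial and gluconeogenic genes, differed by 1.04 ± 0.33 and was higher in 7 of 8 pairs (adjusted p = 0.0627, and 0.0207 with the block).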
